A study of Mus musculus with 33 samples.

Results

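Brain of mouse embryos at stage E16.5 (E counts embryonic days) was compared with whole heads of mouse embryos at stage E9.5, with 3 libraries in each group, 6 of the 33 libraries of a series on ribose methylation of ribosomal RNA (rRNA). The 6 were taken by the tissue and developmental stage given for each. The other 27 libraries came from adult brain and from heart, kidney, liver and lung at E16.5 and in adults. The series' design text calls the 3 libraries of a group biological replicates, and no treatment, genotype or strain is given in the sources used here. The E9.5 samples carry brain in their titles, but their tissue is given as whole head, which holds face and other tissues beside the early brain. Stage and tissue therefore changed together and cannot be told apart. The files hold rRNA alone, so neither tissue could be checked against marker genes. In bulk tissue, a change within cells, fewer cells of a type and less rRNA per cell cannot be told apart either.

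Many riboses of vertebrate rRNA carry a methyl group, which small nucleolar RNAs of the box C/D class place by pairing with the target and bringing in the methyltransferase fibrillarin. Each guide RNA usually lies in an intron of a host gene, often one for a ribosomal protein or a translation factor. Many sites are methylated on nearly every rRNA copy, while others are methylated on part of the copies and can differ between tissues and stages. RiboMeth-seq reads these marks from partial alkaline cleavage, since a methylated ribose protects the bond that follows it and few fragments begin or end there. The score of a site is 1 minus the read ends at the nucleotide over the weighted mean of its 12 neighbours, so 1 means that no fragment ended there and 0 that it was cut as often as its surroundings, or more often. Sites are named by rRNA (SSU for 18S, LSU for 28S), nucleotide and human position, as the authors list them.

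Of the 108 listed sites, 107 could be tested, and 9 (8.41%) were called between E16.5 brain and E9.5 head at an adjusted p under 0.05. At 7 of them (6.54%) the score was higher in E16.5 brain and at 2 (1.87%) it was lower. SSU-Um354 and SSU-Gm867 in 18S rRNA, methylated on a minority of copies in E9.5 heads by this score, stood at 0.774 and 0.847 in E16.5 brain. LSU-Gm4593 and LSU-Gm3606 in 28S rRNA were the 2 lower sites. The adjusted p came from limma, fitted to all 33 libraries with a mean for each of the 11 groups and adjusted by Benjamini-Hochberg over the 107 sites. Same-numbered libraries of both groups deviated together. With replicate number as a block in a model of the 6 libraries alone, limma called 0 sites, 37 had an unadjusted p under 0.05, and the 9 stood at adjusted p from 0.0506 to 0.121. With that block for the 6 libraries inside the model of all 33, chosen after seeing the data, 8 of the 9 were called and LSU-Cm2352 was not.

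The mouse rRNA around the 9 called sites, and around SSU-Gm436, the largest difference that was not called, is printed here so that the affected nucleotides can be found. The sequences were read from the deposited sheets, 21 nucleotides each, from 5' to 3', with the methylated nucleotide in capitals. Positions are counted along mouse 18S or 28S rRNA, since rRNA genes are repeated and the files give no chromosome.
SSU-Um354 (18S 346 to 366): uucgaacgucUgcccuaucaa
SSU-Gm867 (18S 859 to 879): uaggaauaauGgaauaggacc
SSU-Am590 (18S 582 to 602): uuuaacgaggAuccauuggag
SSU-Gm601 (18S 593 to 613): uccauuggagGgcaagucugg
SSU-Um121 (18S 111 to 131): augguuccuuUggucgcucgc
SSU-Gm436 (18S 428 to 448): auuccggagaGggagccugag
LSU-Cm1327 (28S 1145 to 1165): accaaggaguCuaacgcgugc
LSU-Cm2352 (28S 2113 to 2133): gugguaguagCaaauauucaa
LSU-Gm4593 (28S 4266 to 4286): cgcagguucaGacauuuggug
LSU-Gm3606 (28S 3276 to 3296): gcggaccaggGgaauccgacu

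The windows of SSU-Am590 and SSU-Gm601 overlap, so these sites are neighbours on 18S rRNA. The window of LSU-Gm4593 also holds the listed sites LSU-Gm4588 and LSU-Um4590. That of LSU-Cm2352 holds LSU-Am2350 and LSU-Gm2351, so read ends near it are shaped by several methyl groups. Guides named below are those known in human.

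The libraries of E16.5 brain held 16214411, 13354731 and 21469538 summed read ends, against 7584282, 10691377 and 8896504 in those of E9.5 head. All brain libraries were deeper than all head libraries. 18S rRNA took 36.3%, 36.2% and 35.6% of the read ends in E16.5 brain and 31.7%, 27.1% and 31.5% in E9.5 head. At the nucleotides not listed as methylated the median score was 0.0772, 0.0739 and 0.0871 in E16.5 brain, against 0.101, 0.129 and 0.119 in E9.5 head, the opposite direction to the listed sites. The part of depth and of this uneven cleavage in the results below was not tested, beyond a fit in which every library was thinned to 7584282 read ends. In that fit, of the 6 libraries alone, 8 sites were called, all higher in E16.5 brain. Read ends are not independent molecules, since no molecular identifiers were used, so counting errors given here cover counting alone.

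SSU-Um354 lies at mouse 18S position 356 and is the target of SNORD90, whose mouse gene lies within Rc3h2, a gene for an RNA-binding ubiquitin ligase. Its score was 0.829, 0.743 and 0.751 in the libraries of E16.5 brain, against 0.235, 0.379 and 0.30 in those of E9.5 head. The lowest brain library lay far above the highest head library. The difference was 0.470 ± 0.0627 (SE, n = 3 each; limma adjusted p = 8.25e-06). Behind these scores stood 518, 569 and 577 read ends at the nucleotide in E16.5 brain, with a neighbour mean of 3031, 2213 and 2317. In E9.5 head there were 1383, 1122 and 998 read ends at the nucleotide and a neighbour mean of 1808, 1806 and 1425. The shallower head libraries thus had more fragments ending at this nucleotide than the deeper brain libraries. The difference was 0.394 from 5' read ends alone and 0.524 from 3' ends alone, and limma called both, with adjusted p = 8.78e-05 and 4.46e-05.

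SSU-Gm867, at 18S position 869, is the target of SNORD98, whose gene lies within Ccar1, a gene for a regulator of cell cycle and apoptosis. It scored 0.854, 0.823 and 0.865 in E16.5 brain, against 0.483, 0.288 and 0.452 in E9.5 head. The groups were again well apart, with the heads more spread than the brains (SD 0.0219 in E16.5 brain and 0.105 in E9.5 head). The difference was 0.439 ± 0.0766 (SE; limma adjusted p = 0.000123). From 5' ends it was 0.50 (adjusted p = 0.00124), while from 3' ends it was 0.180 and was not called by limma (adjusted p = 0.587). In the heads, 3' ends gave scores of 0.588, 0.752 and 0.703 where 5' ends gave 0.424, 0.198 and 0.374, so the level in E9.5 heads depended on which end of the fragments was read.

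SSU-Am590 and SSU-Gm601 lie 11 nucleotides apart and are the targets of SNORD62 and SNORD103. SSU-Am590 scored 0.954, 0.974 and 0.912 in E16.5 brain, against 0.704, 0.839 and 0.709 in E9.5 head, a difference of 0.196 ± 0.0332 (SE; limma adjusted p = 0.0001). SSU-Gm601 scored 0.981, 0.981 and 0.97 in E16.5 brain, against 0.930, 0.927 and 0.918 in E9.5 head, a difference of 0.0524 ± 0.0128 (limma adjusted p = 0.00537). Neither site had overlapping groups, and at SSU-Gm601 nearly all rRNA copies were read as methylated in both. After the library medians were set equal, SSU-Gm601 differed by 0.0215 and lost its call (limma adjusted p = 0.634), whereas SSU-Am590 kept its call at 0.165. From 3' ends alone the difference at SSU-Am590 was 0.234 and was not called (limma adjusted p = 0.114). In the model of the 6 libraries alone its limma adjusted p was 0.0371, and 0.0511 after thinning.

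SSU-Um121 is the target of SNORD4, whose gene copy Snord4a lies within Rpl23a, a gene for a protein of the large ribosomal subunit. It scored 0.948, 0.943 and 0.954 in E16.5 brain, against 0.851, 0.860 and 0.845 in E9.5 head. Both groups were tight, with SDs of 0.00528 in E16.5 brain and 0.00777 in E9.5 head. The difference was 0.0965 ± 0.0155 (SE; limma adjusted p = 6.1e-05), and from 5' ends alone it was 0.128 (adjusted p = 0.00124). From 3' ends alone it was 0.0209 and limma gave an adjusted p of 1.

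In 28S rRNA 2 sites were called higher. LSU-Cm1327, at mouse 28S position 1155, is the target of SNORD104 and scored 0.966, 0.937 and 0.923 in E16.5 brain, against 0.824, 0.847 and 0.840 in E9.5 head. Its difference was 0.105 ± 0.0162 (SE; limma adjusted p = 4.88e-05), and 3' ends gave 0.129 (adjusted p = 0.00129) where 5' ends gave 0.0456 (adjusted p = 0.0651). LSU-Cm2352, at position 2123, is the target of SNORD24, which is carried by Rpl7a, a gene for a protein of the large subunit. It scored 0.976, 0.962 and 0.972 in E16.5 brain, against 0.898, 0.910 and 0.918 in E9.5 head, a difference of 0.0614 ± 0.0189 (SE; limma adjusted p = 0.0402). Its groups did not overlap, but the call was lost without any single one of the 6 libraries, at differences from 0.056 to 0.0661, and also with equal library medians, at 0.0305. Read from 1 kind of end alone it was not called either, at 0.0466 from 5' ends and 0.144 from 3' ends.

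**Figure D1:**
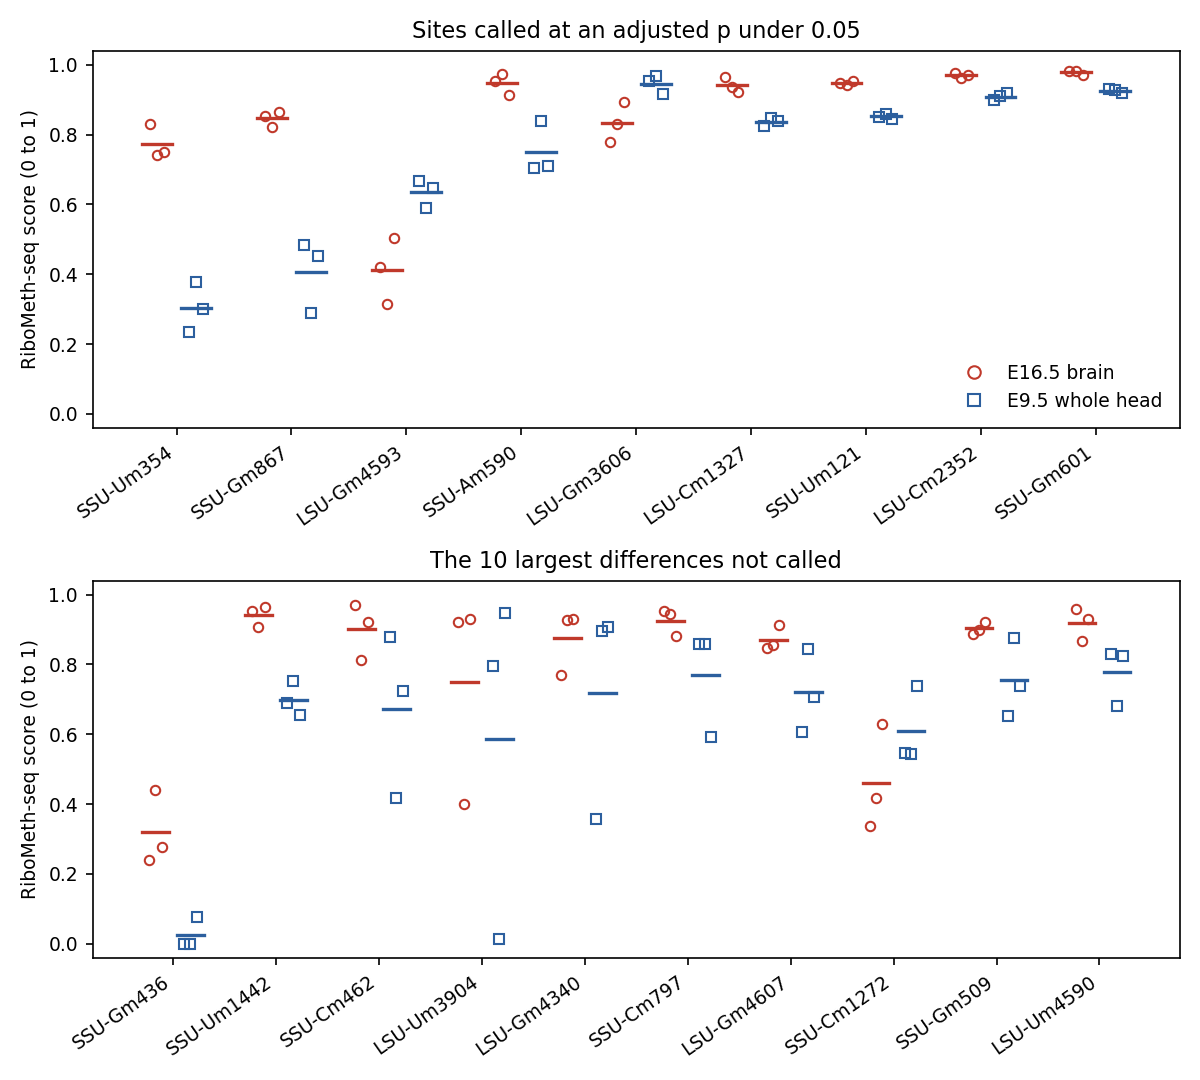
RiboMeth-seq score (0 to 1, vertical axis) of each library at the 9 called sites (upper panel) and at the 10 sites with the largest differences that were not called (lower panel). Red circles are the 3 libraries of E16.5 brain, blue squares the 3 of E9.5 whole head, and bars the group means. At SSU-Um354 and SSU-Gm867 the brains lay from 0.743 to 0.865 and the heads from 0.235 to 0.483, while at LSU-Um3904 both groups were wide and overlapped.

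LSU-Gm4593 was lower in E16.5 brain. This 28S site at mouse position 4276 is the target of SNORD78, 1 of the guides carried by the introns of Gas5, a non-coding host gene. It scored 0.419, 0.314 and 0.504 in E16.5 brain, against 0.668, 0.591 and 0.646 in E9.5 head. The groups did not overlap, and the highest brain library lay closest to the lowest head library. The difference was -0.223 ± 0.0456 (SE; limma adjusted p = 0.00078). In the model of the 6 libraries alone the adjusted p was 0.179. In the model of all 33, adult brain and adult liver scored 0 at this site in all their libraries and so added no spread to the estimate that the test uses. Read ends at the nucleotide numbered 2052, 3003 and 3321 in E16.5 brain over a neighbour mean of 3534, 4378 and 6692, against 345, 1223 and 655 in E9.5 head over 1040, 2990 and 1849. Both kinds of read end ran the same way, at -0.130 from 5' ends and -0.257 from 3' ends, though limma called neither (adjusted p = 0.155 and 0.0842). LSU-Um4590, 3 nucleotides away and inside the same window, differed in the other direction, by 0.141 ± 0.0639 (SE), and was not called (limma adjusted p = 0.21), with 0.0919 left without the second head library. Each of these sites is among the neighbours that set the score of the other, so their opposite directions are not independent observations.

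LSU-Gm3606, at mouse position 3286, scored 0.779, 0.829 and 0.893 in E16.5 brain, against 0.953, 0.967 and 0.915 in E9.5 head. The groups lay close together, and the third pair of same-numbered libraries differed by only -0.0224. The difference was -0.111 ± 0.0227 (SE; limma adjusted p = 0.00078), and in the model of the 6 libraries alone it was not called (adjusted p = 0.109). From 5' ends the difference was -0.118 (limma adjusted p = 0.094), against -0.00064 from 3' ends. The mix of ends around the site differed too. In E16.5 brain 5' ends made up 1956, 1786 and 3187 of the neighbour mean of 3729, 2456 and 4226. In E9.5 head they made up 199, 167 and 358 of 1011, 1054 and 1140. The part of this mix in the difference from both ends together was not tested. In E16.5 brain 783, 406 and 396 5' ends and 40, 13 and 58 3' ends fell on the nucleotide, against 28, 16 and 58 5' ends and 20, 19 and 39 3' ends in E9.5 head. The 3' ends thus read the site as almost fully methylated in both groups, with scores from 0.944 to 0.981 in E16.5 brain and from 0.950 to 0.979 in E9.5 head.

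**Figure D2:**
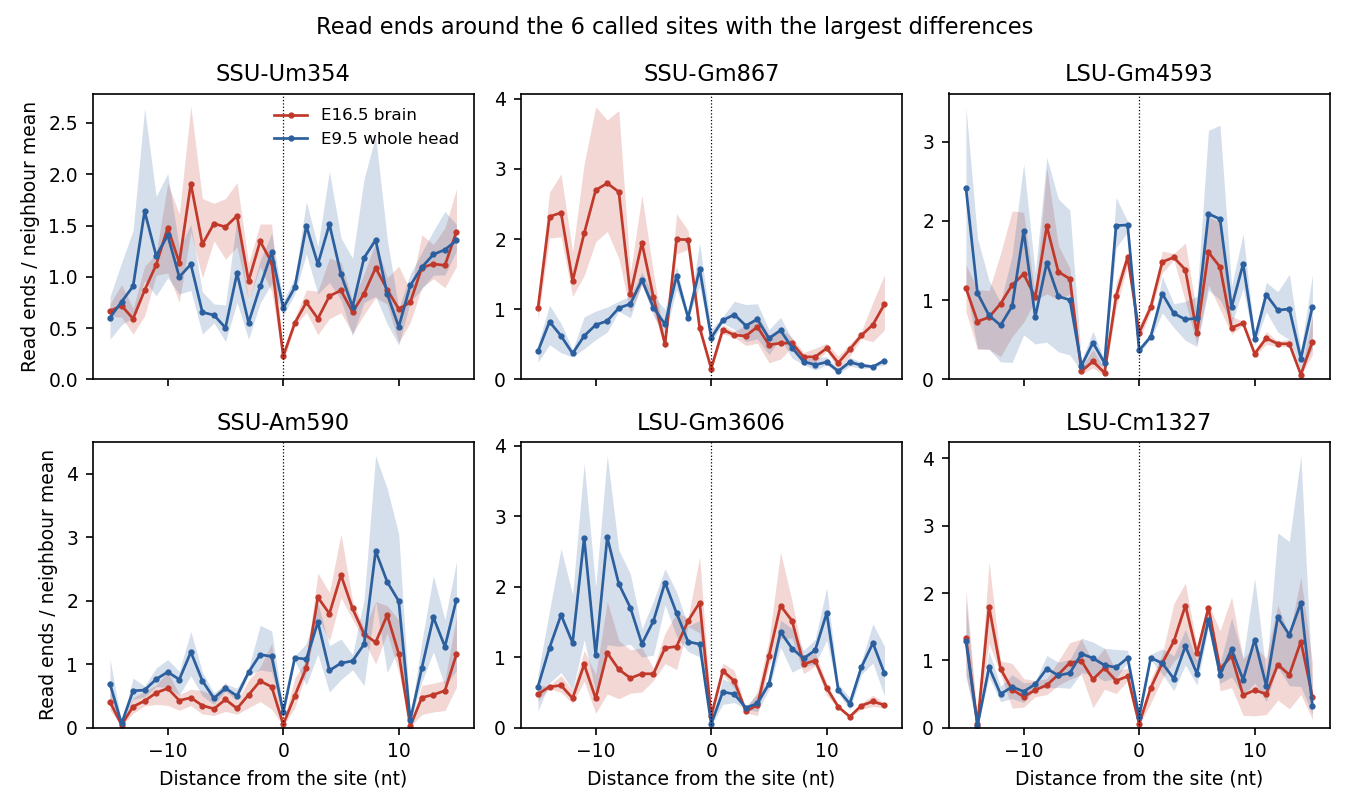
Read ends at each nucleotide from 15 before to 15 after the 6 called sites with the largest differences, divided by the weighted mean of the 12 neighbours of the site (vertical axis; distance in nucleotides on the horizontal axis). Red is E16.5 brain and blue E9.5 whole head, with lines for the mean of 3 libraries and shading for their range. At SSU-Um354 the dip at distance 0 reached 0.226 in the brains and 0.696 in the heads, and at LSU-Gm4593 it reached 0.588 in the brains and 0.365 in the heads.

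The 10 sites with the largest differences that limma did not call held larger differences than most called sites. SSU-Gm436, the target of SNORD100 from Rps12, a gene for a protein of the small subunit, scored 0.240, 0.442 and 0.276 in E16.5 brain, against 0, 0 and 0.0776 in E9.5 head. In the heads the nucleotide was cut at least as often as its surroundings in 2 libraries, with 1330 and 3519 read ends over a neighbour mean of 1044 and 2682. The groups did not overlap, and the difference was 0.294 ± 0.103 (SE; limma adjusted p = 0.087). It was called in the model of the 6 libraries alone (adjusted p = 0.0345) and from 5' ends alone, at 0.276 (adjusted p = 0.047). From 3' ends it was 0.0572, and there the heads scored 0.415, 0.556 and 0.270. SSU-Um1442, the target of SNORD61 from Rbmx, a gene for an RNA-binding protein of splicing, scored 0.952, 0.907 and 0.964 in E16.5 brain, against 0.691, 0.752 and 0.655 in E9.5 head. Its groups were far apart too. The difference was 0.242 ± 0.0867 (SE; limma adjusted p = 0.0889), with an adjusted p of 0.0287 in the model of the 6 libraries alone and 1.69e-05 from 5' ends. It was not called from 3' ends, at 0.203, nor with library medians set equal, at 0.211 (limma adjusted p = 0.22). With the replicate block in the 6 libraries alone the limma adjusted p was 0.0506. The SDs were 0.0299 in E16.5 brain and 0.0492 in E9.5 head, while the model of all 33 libraries also holds E16.5 liver and kidney, with SDs of 0.236 and 0.190 at this site.

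SSU-Cm462, a target of SNORD14, scored 0.971, 0.812 and 0.921 in E16.5 brain, against 0.878, 0.417 and 0.724 in E9.5 head, and limma gave an adjusted p of 0.664. The second library was the lowest of both groups. From 5' ends all 6 libraries lay at 0.955 or above and the difference was 0.00594, so the spread and the difference of 0.228 came from 3' ends. Without the second head library the difference was 0.101. LSU-Um3904, the target of SNORD52, scored 0.923, 0.401 and 0.930 in E16.5 brain, against 0.797, 0.0124 and 0.948 in E9.5 head (difference 0.166, limma adjusted p = 0.818). Here too the second library of each group stood far below the others, and in the rebuilt score with the authors' barcode correction, which reads 5' ends alone in the second and the third brain library and in the first and the second head library, the difference was 0.00107. Without the second head library the sign turned, to -0.121.

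LSU-Gm4340, the target of SNORD60, was low in the first library of both groups, at 0.771 in E16.5 brain against 0.357 in E9.5 head, while the others lay at 0.926 and 0.929 in E16.5 brain and 0.896 and 0.906 in E9.5 head. Its difference of 0.156 became 0.056 with the correction and -0.0254 without the first head library. SSU-Cm797 scored 0.953, 0.943 and 0.881 in E16.5 brain, against 0.859, 0.860 and 0.591 in E9.5 head, and was low in the third library of both (difference 0.156, limma adjusted p = 0.236). The difference was 0.103 with the correction and 0.0665 without the third head library. SSU-Gm509, the target of SNORD11 from Nop58, a gene for a core protein of these guide complexes, scored 0.888, 0.90 and 0.922 in E16.5 brain, against 0.653, 0.875 and 0.739 in E9.5 head. The brains lay above the heads by a narrow margin, and the difference was 0.147 ± 0.0613 (SE; limma adjusted p = 0.155). It was 0.0962 without the first head library and 0.207, then called by limma (adjusted p = 0.04), without the second. LSU-Gm4607 differed by 0.151 ± 0.0746 (SE; limma adjusted p = 0.248) and its groups nearly touched, with 0.846, 0.855 and 0.912 in E16.5 brain against 0.608, 0.844 and 0.708 in E9.5 head. Without the first head library the difference was 0.0953. SSU-Cm1272, the target of SNORD66 from Eif4g1, a gene for a translation initiation factor, was the only 1 of these 10 with a negative difference. It scored 0.338, 0.417 and 0.628 in E16.5 brain, against 0.545, 0.543 and 0.737 in E9.5 head (difference -0.148, limma adjusted p = 0.642), with differences from -0.231 to -0.0834 when single libraries were left out.

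**Figure D3:**
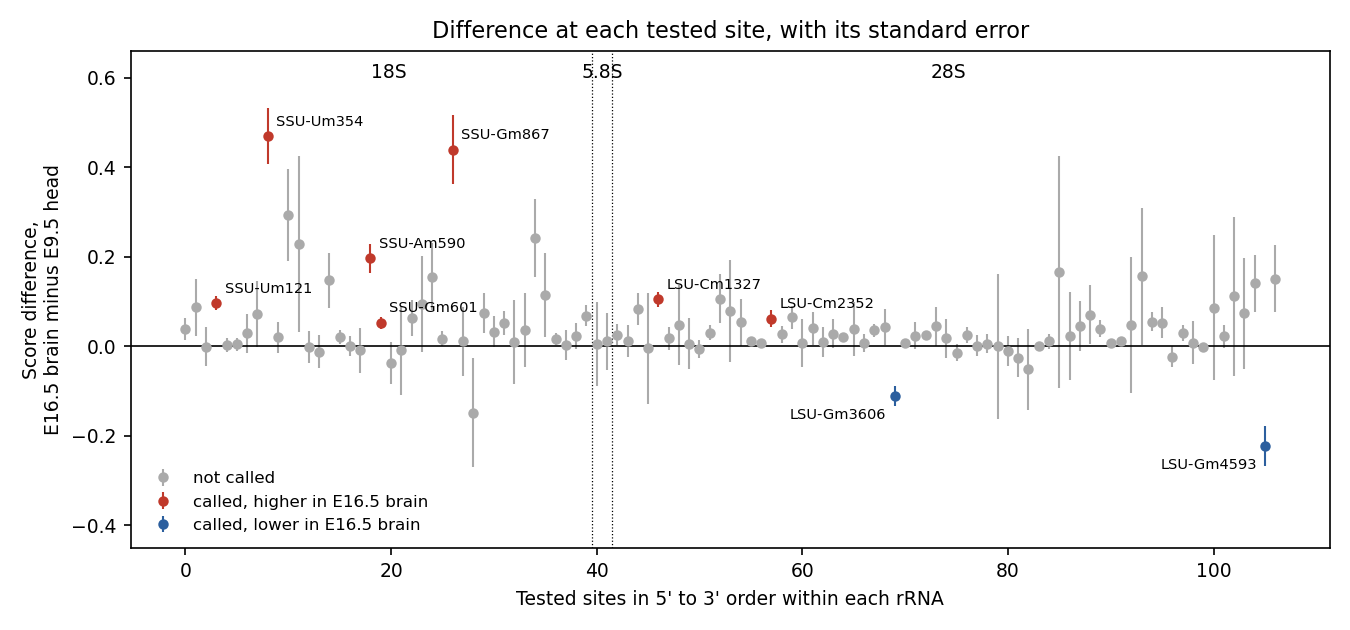
Score difference at each of the 107 tested sites (vertical axis, E16.5 brain minus E9.5 head) with its standard error, in order along 18S, 5.8S and 28S rRNA. Red points are the 7 sites called higher in E16.5 brain, blue points the 2 called lower and grey points the 98 not called. Differences above 0 numbered 89, and the called 18S sites were all higher.

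Over all 107 sites the difference was positive at 89 and negative at 18, with a median of 0.0247. In 32 sites (29.9%) the groups did not overlap, with E16.5 brain above at 30 (28%) and below at 2 (1.87%). The median score of a library over the sites was 0.953, 0.950 and 0.941 in E16.5 brain, against 0.927, 0.910 and 0.915 in E9.5 head. The means of these medians differed by 0.0309, with a p of 0.1 in a two-sided exact permutation test over the 6 libraries, the smallest that 3 against 3 allows. In the same-number pairs 58 sites were higher in E16.5 brain in all 3 and 7 were lower in all 3. In E16.5 brain 81 sites scored 0.9 or more on average, 16 from 0.75 to 0.9 and 10 below 0.75, against 62, 26 and 19 in E9.5 head. The upper end of the scale was thus more populated in E16.5 brain. With library medians set equal, limma called 5 sites higher and 3 lower, in place of 7 and 2.

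Over all 107 sites 6.54% were called higher and 1.87% lower, and the counts of each list are read against these shares. In 18S rRNA 5 of 40 sites rose, none fell and 35 were uncalled, with a median difference of 0.0344. In 28S rRNA 2 of 65 sites rose, 2 fell and 61 were uncalled, with a median of 0.0246. Neither 5.8S site was called, at 0.0053 for 5.8S-Um14 and 0.0108 for 5.8S-Gm75. The 28S median lay next to that of all sites and the 18S median above it. Whether the 18S count exceeds the share over all sites was not tested. The share of reads from 18S rRNA was higher in every E16.5 brain library, as given above, and its bearing on these medians was not tested either. By nucleotide, 2 of 20 methylated uridines rose (SSU-Um354 and SSU-Um121, median over the list 0.0313), 2 of 22 cytidines rose (0.0374) and 1 of 33 adenosines rose (0.011). Of 32 guanosines 2 rose and 2 fell (0.0396). Counts this small do not set the nucleotides apart from the share over all sites.

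Sites of intermediate level, with a mean of 0.25 to 0.75 over all 33 libraries, had the largest median difference, 0.112 over 11 sites, of which 2 rose, 1 fell and 8 were not called. From 0.75 to 0.9 the median was 0.0709 over 29 sites, with 1 higher, and at 0.9 or above it was 0.0178 over 67 sites, with 4 higher and 1 lower. Sites near 1 have little room to rise on this scale, and the part of this limit in the medians was not tested. The mean that set the lists also includes the 6 libraries compared. Of the 22 sites with another listed site within 2 nucleotides 1 rose, and of the other 85, 6 rose and 2 fell, both near the share of 6.54% called higher over all sites.

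Sites were also grouped by the host gene that carries their guide. The 10 sites guided from Gas5 had a median difference of 0.0025, against 0.0247 over all sites, with 6 differences above 0 and 4 below. LSU-Gm4593 was called lower and the other 9 were not called (limma adjusted p of 0.626 or more). Among them, SSU-Am166 (SNORD44) stood at 0.984 in E16.5 brain and 0.980 in E9.5 head, and LSU-Cm3820 (SNORD74) at 0.910 in E16.5 brain and 0.935 in E9.5 head. The other negative differences were -0.025 ± 0.0446 at LSU-Cm3820, -0.0101 ± 0.0335 at LSU-Am3809 and -0.00603 ± 0.0191 at LSU-Gm1612 (SE). Whether LSU-Gm4593 differed from them was not tested. Of the 4 sites guided from Rpl7a, LSU-Cm2352 rose and 3 were not called. LSU-Cm2338, which shares the guide SNORD24 with LSU-Cm2352, stood at 0.968 in E16.5 brain and 0.914 in E9.5 head, a difference of 0.054 (limma adjusted p = 0.683). None of the 7 sites guided from Snhg1, the 4 from Rpl13a and the 3 from Nop56 was called, with medians of 0.0255, 0.0425 and 0.0741. With 8.41% of all sites called, lists of 3 to 10 sites would hold few calls or none, so these counts and medians are descriptions.

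Taken over 3 stages, the sites differed in whether the difference went on in the same direction. SSU-Um354 averaged 0.305 in E9.5 heads, 0.774 in E16.5 brain and 0.954 in adult brain, and SSU-Gm867 0.408, 0.847 and 0.941. The step from E16.5 to adult was not called at either site (limma adjusted p = 0.0976 and 0.618). LSU-Gm4593 averaged 0.635, 0.412 and 0, and SSU-Gm436 0.0259, 0.319 and 0.762. At these sites limma called the later step (adjusted p = 2.55e-07 and 0.00818), among 8 of 107 sites (7.48%) called between adult and E16.5 brain. LSU-Gm3606 averaged 0.945, 0.834 and 0.949, so E16.5 brain was the low point, and the later step of 0.115 ± 0.0227 (SE) was called as well (limma adjusted p = 0.00169). The 2 steps share the E16.5 libraries, and at LSU-Gm3606 both rest on the same 3 low values there. SSU-Am590, SSU-Um121, SSU-Gm601, LSU-Cm1327 and LSU-Cm2352 ended between 0.964 and 0.981 in adult brain, with later steps of at most 0.0292, none of them called.

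**Figure D4:**
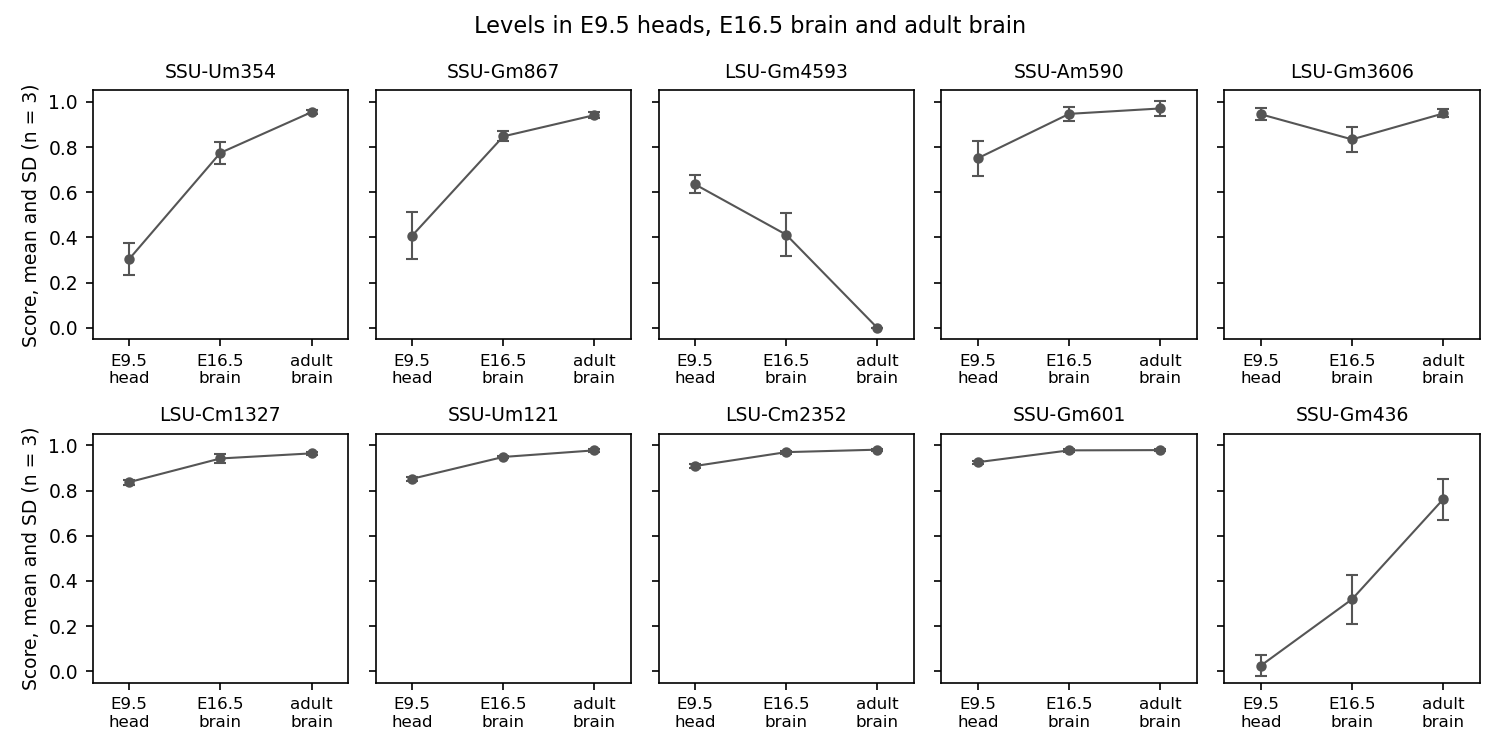
Mean score (vertical axis) with SD over 3 libraries in E9.5 whole head, E16.5 brain and adult brain at the 9 called sites and at SSU-Gm436. SSU-Um354 stood at 0.305, 0.774 and 0.954 in that order, LSU-Gm4593 at 0.635, 0.412 and 0, and LSU-Gm3606 at 0.945, 0.834 and 0.949.

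The other tissues at E16.5 place these levels. SSU-Um354 averaged from 0.222 in liver to 0.611 in kidney and SSU-Gm867 from 0.186 in liver to 0.607 in heart, all below E16.5 brain, while the E9.5 heads lay inside both ranges. LSU-Gm4593 ran from 0.446 in heart to 0.711 in liver, and LSU-Gm3606 from 0.916 in lung to 0.973 in liver, all above E16.5 brain. SSU-Am590 ran from 0.604 in liver to 0.898 in heart, and SSU-Um121 from 0.786 in liver to 0.90 in kidney. At the 7 sites called higher, E16.5 brain thus had the highest mean of the 5 tissues, and at the 2 called lower it had the lowest. The sites were chosen because the same E16.5 brain libraries differed from the E9.5 heads, which favours such a rank. The share of all tested sites with such a rank was not worked out. The median score over all sites was itself higher in every E16.5 brain library, at 0.941 or more. In the other E16.5 tissues it was at most 0.939, in a heart library. Differences between the tissues were not tested here.

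The score rests on 5' and 3' read ends together, and the ends gave different counts of calls. From 5' ends alone limma called 26 sites, all higher in E16.5 brain, 4 of them among the 9 (SSU-Um354, SSU-Gm867, SSU-Am590 and SSU-Um121). From 3' ends alone it called 3, all higher and all among the 9 (SSU-Um354, SSU-Gm601 and LSU-Cm1327). SSU-Um354 was thus the only called site that was called from 5' ends alone and also from 3' ends alone. The fit to 5' ends gave no lower site, and neither did the fit to 3' ends.

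**Figure D5:**
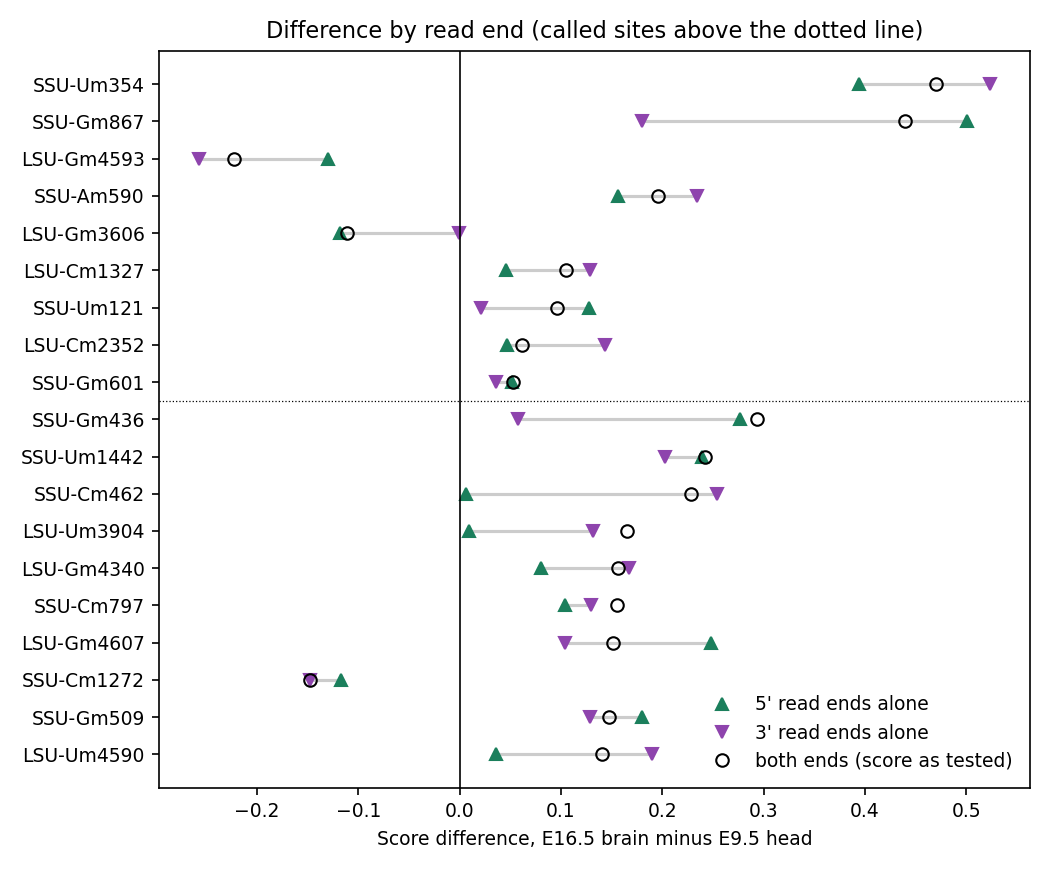
Score difference (horizontal axis, E16.5 brain minus E9.5 head) at the 9 called sites, above the dotted line, and the 10 largest differences not called, below it. Green triangles are 5' read ends alone, purple triangles 3' read ends alone and open circles both together. The ends lay close at SSU-Gm601 (0.0518 and 0.0363) and far apart at SSU-Gm867 (0.50 and 0.180), LSU-Gm3606 (-0.118 and -0.00064) and SSU-Cm462 (0.00594 and 0.254).

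Libraries with the same number deviated from their group means together. Across the 107 sites the correlation between the deviations of an E16.5 brain library and the E9.5 head library of the same number was 0.655, 0.807 and 0.734. The sites share libraries and depth, so these are descriptions, and values for unlike numbers are not set against them, since deviations from a mean of 3 sum to 0. From 3' ends alone the same-number values were 0.729, 0.798 and 0.735, and from 5' ends alone 0.0751, 0.311 and 0.292. The deviations shared between groups were thus more alike in 3' ends. The libraries that the authors corrected for barcode effects were inferred, as those whose 5' scores gave back the deposited group means. By this inference, SSU-Gm683 and LSU-Gm4340 were corrected in the first and the third library of both groups and LSU-Cm4506 in the second of both. LSU-Um3904 was corrected in the second and the third library of E16.5 brain but in the first and the second of E9.5 head. SSU-Am99, in the second library, and SSU-Cm797, in the first and the third, were corrected in E9.5 head alone. Over the 19 named sites the SD between replicates was above the counting error in 34 of 38 groups of 3 libraries, with counting SDs of at most 0.0369 (SSU-Gm436).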

How the data were processed

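Whole-cell RNA was partly cleaved with alkali, and fragments were ligated to linkers and read on an Ion Proton instrument, per the labels' protocols. Tools named in the submitters' processing notes are Bowtie2 2.3.4.1 and cutadapt 2.0, without their roles. For each of 6878 rRNA nucleotides the authors deposited counts of 5' ends, 3' ends and their sum per library, and a fraction methylated (the RiboMeth-seq score), per the file headers. The score was rebuilt from the counts within 5e-10, with 6 neighbours on each side weighted from 1 to 0.5. The authors' deposited table of group means, with a barcode correction at some sites, listed the 108 sites. All 11 sheets carry adult lung names in their column headers, so the group was taken from the sheet name. The sheet means equalled the authors' means of the named group at 104 (E16.5 brain) and 102 (E9.5 head) of the 108 sites (tolerance 1e-05), and no other group's mean at any site.

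Sites needed a neighbour mean of 10 read ends in every library, and LSU-Cm3848 was left out. In E16.5 brain the lowest neighbour mean was 496, 659 and 674 read ends per library, and in E9.5 head 241, 342 and 227. Uncorrected scores were tested with limma 3.58.1 in R 4.3.3 (eBayes with trend, two-sided). Alternatives, edgeR 4.0.16 on the counts among them, are given at the end. The scripts were tested on simulated data. Replicates differed by more than counting noise (chi-square per degree of freedom 224 to 491). No library was counted as a repeat of another, though this spread cannot tell separate samples from separate preparations of the same RNA. The main test did not pair the libraries. Replicate numbers were taken to pair them in the alternative fits with a block and in the counts over pairs. The ground was that each same-number correlation of the uncorrected score exceeded 0.1, though the labels name no shared litter or batch. These correlations were 0.551, 0.635 and 0.592 in the rebuilt corrected score, and from 5' ends alone that of the first pair was 0.0751.

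Values are given for every called site and for the 10 sites with the largest differences not called. LSU-Gm4593, known from the study's own reports, was to be named in any case. The comparison, the sites and the lists were chosen with earlier results of these data known. Guides and their host genes come from general knowledge of human snoRNAs, and the genes around mouse guides from RefSeq annotation.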

Additional observations from a re-analysis of the deposited data

How the results depend on the processing

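The 9 calls (7 higher, 2 lower in E16.5 brain) became 0 calls (0 higher, 0 lower) with the replicate block in the 6 libraries alone, 26 (26 higher, 0 lower) from 5' ends and 3 (3 higher, 0 lower) from 3' ends. The model of the 6 libraries alone gave 9 higher and 0 lower, and thinning 8 higher and 0 lower. The arcsine square root of the score and edgeR each gave 11 higher and 2 lower. Other settings gave 8 or 9 calls, and leaving out 1 library at a time gave 8 to 10 (6 to 8 higher, 2 lower). The difference in median score ran from 0.0264 to 0.0326 over the alternatives and from 0.0272 to 0.0357 without single libraries. The same 9 sites were called after the rebuilt barcode correction. That correction left the scores of these 9 sites unchanged, so it cannot show whether barcode effects touch their calls. Without single libraries LSU-Um3904 ran from -0.121 (without the second E9.5 head library) to 0.347 and LSU-Gm4340 from -0.0254 (without the first) to 0.249, and the cause was not tested. LSU-Cm2352 lost its call in 12 of 20 settings, LSU-Gm3606 and LSU-Gm4593 in 5 each, SSU-Am590 and SSU-Gm601 in 3 each, LSU-Cm1327, SSU-Gm867 and SSU-Um121 in 2 each and SSU-Um354 in 1, the replicate block. Some of the 20 settings left the scores of these sites as in the main fit, and each of those kept all 9 calls. They were the rebuilt correction, a neighbour mean of at least 100, no coverage minimum and eBayes without trend. What depth limits was not tested beyond thinning.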

Other observations

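Outside the listed sites, 6722 nucleotides could be scored, and 11 of them scored 0.75 or more in all 6 libraries, 10 in 28S and 1 in 5.8S rRNA. Those at 0.75 or more in all 3 libraries of a group numbered 37 in E16.5 brain and 17 in E9.5 head. A run of 6 adjoining nucleotides at 28S positions 4717 to 4722 averaged from 0.814 to 0.986 in E16.5 brain and from 0.836 to 0.982 in E9.5 head. The nucleotide at 5.8S position 134 averaged 0.962 in E16.5 brain and 0.910 in E9.5 head. A high score here says only that few read ends fell on the nucleotide, and no other evidence of methylation was used.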
